A study of Paralichthys olivaceus with 6 samples.

Results

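The genes that carry the cellular oxygen-sensing pathway were followed in hindbrain RNA-seq read counts of a flatfish reared in aquaculture, the olive flounder (Paralichthys olivaceus). A rule on gene names chose them, and it was set with earlier results of these data known. Of 10 gene names of the hypoxia-inducible factor (HIF) pathway, 6 were found among the 24395 gene rows of the count tables. These were hif1a, epas1, arnt2, egln1, hif1an and vhl. The names hif3a, arnt, egln2 and egln3 were not among the row names. RefSeq gives a HIF family name to 4 more rows that the tables list only by number: LOC109640140 (hif1al), LOC109626720 (epas1a), LOC109633245 (arnt) and LOC109630335 (egln2). These 4 paralogs are described beside the 6 members. Numbered rows to which RefSeq gives no symbol were not searched, so further family genes may lie among them.

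The study set fish selected as bold against fish selected as shy, with oxygen metabolism named in its title. It has 6 libraries, 3 titled bold and 3 titled shy. The fish weighed 101.06 ± 6.39 g (SD) and were kept at 18 °C; the sources used here state no genotype, sex or age. The personality characteristic of each library gives the opposite word to its title and source name, for all 6 libraries, so groups are called by their titles here. If the characteristic is right and the title wrong, the sign of each difference changes. RNA came from 6 individuals, without a statement of whether each library is 1 fish or a pool. The p-values therefore measure the spread between these libraries, which may be technical.

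In vertebrates, HIF is a transcription factor made of an oxygen-labile alpha subunit and a stable beta subunit. While oxygen is plentiful, prolyl hydroxylases of the egln family mark the alpha subunit, the VHL protein recognises the mark and a ubiquitin ligase sends the subunit to the proteasome, and a separate asparagine hydroxylase blocks its transactivation domain. When oxygen falls, the alpha subunit persists, pairs with ARNT or ARNT2 and drives genes of glycolysis, red cell production and vessel growth. Much of this control acts on protein, so transcript levels do not measure the pathway's activity.

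Library totals lay between 18081694 counts, in titled bold 2, and 22805563 counts, in titled shy 2. Titled bold 2 also had the fewest genes with a count, 21872 against between 22190 and 22430 elsewhere. Levels are given as CPM, counts scaled to a common library size after TMM normalisation, which corrects totals for differences in composition. By library totals alone, before that correction, 3 counts corresponded to between 0.132 and 0.166 CPM. CPM is not divided by transcript length, so levels are compared between libraries and not between genes. Titled bold 2 stood apart: 9.82% of the tested genes lay more than 1 log2 unit below the median of the other 5 libraries there, against between 0.982% and 3.04% in each of the others. It also had the highest summed level of 11 neuronal markers (10203 CPM, against between 7081 and 7788 CPM elsewhere) and of 8 oligodendrocyte markers (4000.2 CPM, against between 1998 and 2433 CPM elsewhere). In that library snap25 (5697 CPM) and mbpa (2391.5 CPM) made up the larger part of these sums. Not all neuronal markers went this way: elavl3 was lowest there, at 160 CPM against between 189 and 223 CPM elsewhere. Nor did all oligodendrocyte markers: mpz was lowest there, at 47.6 CPM against between 48.3 and 59.4 CPM elsewhere.

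Among the alpha subunits, hif1a and epas1 had their lowest values in titled bold 2. The gene hif1a encodes HIF-1 alpha, the broadly expressed oxygen-labile subunit. It had 47.8, 24.6 and 39.8 CPM in libraries titled bold 1, 2 and 3, and 45.4, 44.9 and 42.6 CPM in libraries titled shy 1, 2 and 3. The 3 titled shy libraries lay close together, within the range of the titled bold ones. The mean was 37.4 ± 11.8 CPM in titled bold and 44.3 ± 1.48 CPM in titled shy (SD, n = 3 each), a log2 fold of -0.24 ± 0.21 (SE).

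The gene epas1 encodes HIF-2 alpha, which in mammals is prominent in vessel endothelium and drives erythropoietin. It varied most of the 6 members, with 10.7, 1.22 and 4.83 CPM in titled bold 1, 2 and 3 and 12.1, 7.77 and 5.34 CPM in titled shy 1, 2 and 3. The highest library was 9.94 times the lowest, and its coefficient of variation of 57.6% lay above that of 95.5% of tested genes. Counting error alone would give 8.16%. The titled bold 2 value rested on 21 reads, with an exact Poisson interval from 0.755 to 1.86 CPM at 95% confidence, counting error only, which lies below the other 5 values. The groups overlapped, at 5.57 ± 4.76 CPM in titled bold and 8.41 ± 3.43 CPM in titled shy, with a log2 fold of -0.59 ± 0.63 (SE).

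Both differences depended on single libraries. Without titled bold 2 the log2 fold was -0.02 for hif1a and -0.12 for epas1, and without titled shy 1 it was -0.22 for epas1. Without titled bold 1 it was -0.44 for hif1a and -1.45 for epas1, with unadjusted edgeR p-values of 0.0449 and 0.0381 and adjusted ones of 0.409 and 0.397. That fit gave 2392 of 20014 tested genes an unadjusted edgeR p under 0.05, against 690 of 19755 with all 6 libraries. Only 0.663% of tested genes were further below the median of the other libraries in titled bold 2 than epas1 was, and 12.2% were further below than hif1a. Endothelial markers were mixed in that library. The sum of 14 marker genes was 404, 436 and 417 CPM in titled bold 1, 2 and 3, and 449, 478 and 401 CPM in titled shy 1, 2 and 3. Of the 14, 2 had their highest value in titled bold 2 (kdrl and pecam1a) and 2 their lowest, cdh5 at 2.67 CPM, against between 3.83 and 8.19 CPM elsewhere, and flt1 at 13.99 CPM, against between 19.1 and 22.9 CPM elsewhere. In bulk tissue, fewer cells of a type and less RNA per cell cannot be told apart. The part of these markers, and of the higher neuronal and oligodendrocyte sums of titled bold 2, in these values was not tested.

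The alpha-subunit paralogs did not share this low value. The gene hif1al, a teleost relative of hif1a, had 31.998, 29.5 and 27.4 CPM in titled bold 1, 2 and 3 and 40.3, 30.3 and 34.0 CPM in titled shy 1, 2 and 3. Its groups overlapped, with a log2 fold of -0.23 ± 0.14 (SE). The gene epas1a, a second locus named for HIF-2 alpha, had 2.67, 2.44 and 5.28 CPM in titled bold 1, 2 and 3, and 1.72, 1.32 and 1.23 CPM in titled shy 1, 2 and 3. Each titled bold library lay above each titled shy one, and titled bold 3 was the highest.

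Of the 10 family genes, epas1a was the single gene whose groups did not overlap, which happened for 9.53% of all tested genes. It averaged 3.46 ± 1.58 CPM in titled bold and 1.42 ± 0.259 CPM in titled shy (SD, n = 3 each), a log2 fold of 1.28 ± 0.40 (SE). The difference did not pass edgeR's quasi-likelihood test across all genes (unadjusted p = 0.0118, adjusted p = 0.955). Without titled bold 3 the log2 fold was 0.84 with an unadjusted edgeR p of 0.0704. Leaving out any 1 of the other 5 gave log2 folds between 1.20 and 1.48. Its level rests on 26 to 106 reads per library.

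The beta subunits were steadier. The gene arnt2 encodes ARNT2, the partner enriched in neural tissue of vertebrates. It had 245, 322 and 266 CPM in titled bold 1, 2 and 3, and 260.2, 258 and 293 CPM in titled shy 1, 2 and 3. The highest value was in titled bold 2, where hif1a and epas1 were lowest, and the groups overlapped. Titled bold 2 was the lowest library for 29.3% of all tested genes and the highest for 25.4%. It was the lowest for 2 of the 6 members and the highest for 2 (arnt2 and egln1). In that library 81.8% of tested genes stood lower than arnt2 against the median of the other libraries. Group means of arnt2 were 278 ± 40.0 CPM in titled bold and 270.3 ± 19.2 CPM in titled shy. Its paralog arnt, the broadly expressed partner, had 212, 224 and 231 CPM in titled bold 1, 2 and 3 and 219, 209.8 and 214 CPM in titled shy 1, 2 and 3. The coefficient of variation of arnt, 3.78%, was lower than in all but 0.944% of tested genes, where counting error alone would give 1.49%.

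Several classes of genes hold the alpha subunit down in well-oxygenated cells. The first is the prolyl hydroxylases. The gene egln1 encodes PHD2, the main oxygen sensor for HIF in mammals, and had 18.4, 20.03 and 16.3 CPM in titled bold 1, 2 and 3, and 18.2, 17.5 and 17.3 CPM in titled shy 1, 2 and 3. All 3 titled shy values lay inside the range of the titled bold ones, and its coefficient of variation of 6.97% was close to the 5.21% that counting error alone would give. Its paralog egln2, which encodes PHD1, had 56.3, 74.5 and 67.9 CPM in titled bold 1, 2 and 3 and 59.8, 64.1 and 78.1 CPM in titled shy 1, 2 and 3.

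The asparagine hydroxylase and the ubiquitin ligase receptor overlapped between groups too. The gene hif1an, which encodes the factor inhibiting HIF, had 19.3, 27.3 and 28.1 CPM in titled bold 1, 2 and 3 and 23.3, 21.5 and 23.9 CPM in titled shy 1, 2 and 3. Its lowest and 2 highest libraries were all titled bold. The gene vhl, which encodes the von Hippel-Lindau protein, had 21.97, 23.1 and 26.5 CPM in titled bold 1, 2 and 3 and 22.6, 27.7 and 20.9 CPM in titled shy 1, 2 and 3. Its highest and lowest libraries were both titled shy.

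**Figure D1:**
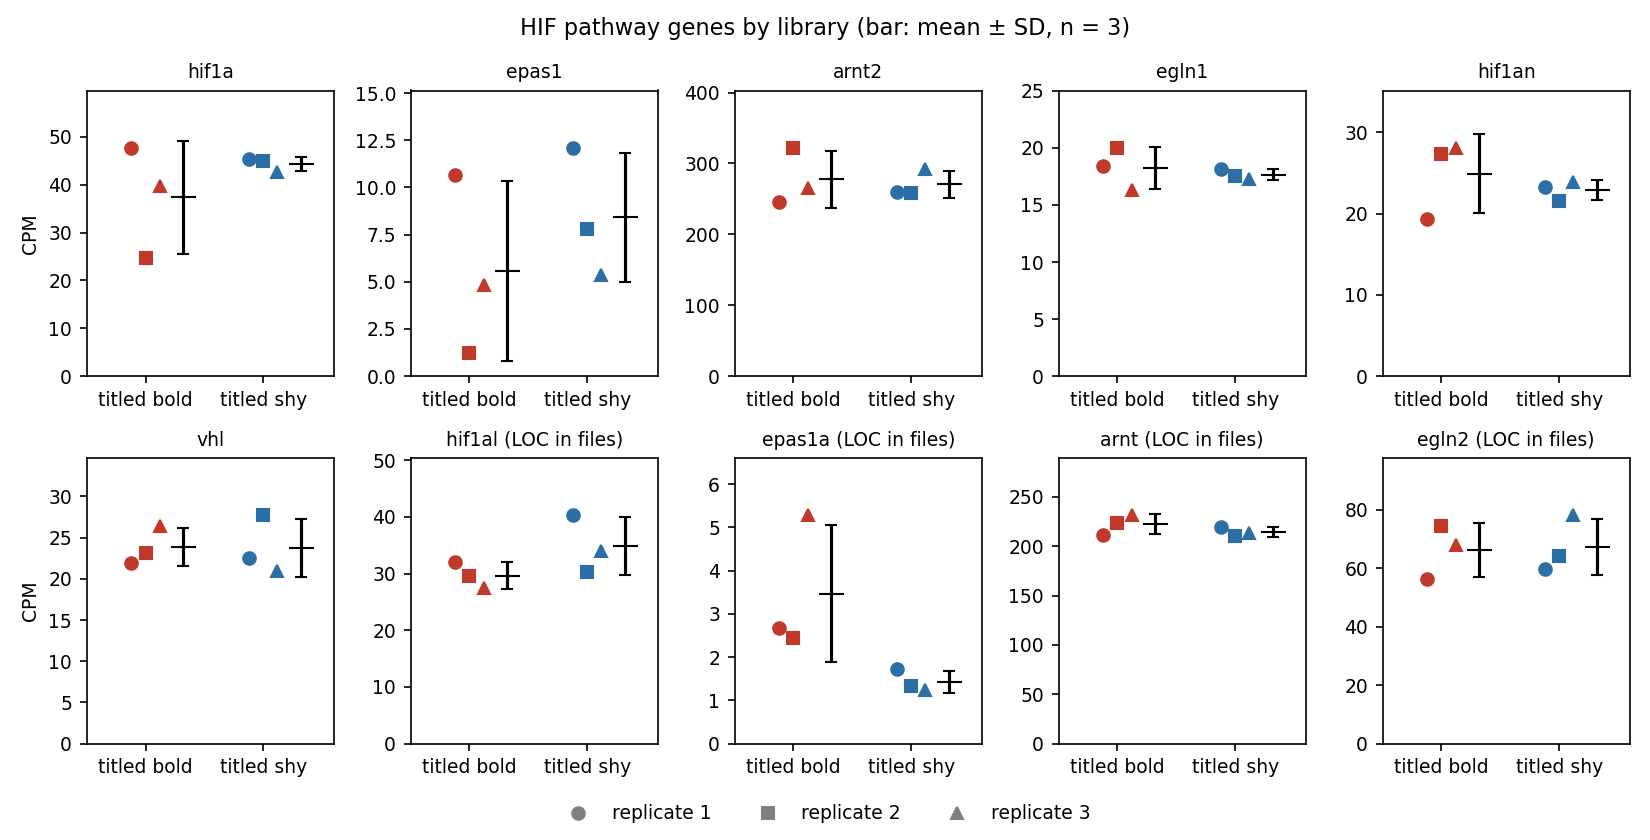
CPM of the 6 HIF pathway members and 4 paralogs in each library (y axis from 0, its own scale per gene), titled bold in red and titled shy in blue, symbols by replicate number, bars mean ± SD of 3 libraries. The epas1 values run between 1.22 and 12.1 CPM with both groups mixed, while each epas1a value of titled bold lies above those of titled shy.

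No member differed between the groups beyond the spread between libraries. All 6 members passed the filter on low counts, and edgeR's quasi-likelihood test called 0 of 6 at an adjusted p under 0.05, as it did for 0% of the 19755 tested genes. At an unadjusted p under 0.05 it found 0 of 6, where the share over all tested genes was 3.49% (1.74% higher and 1.75% lower in titled bold). DESeq2 and limma-voom also called 0 of 6, and DESeq2 called 0.0608% of all genes it tested. The groups did not overlap for 0 of 6, where the share over all tested genes was 9.53%. Fitted log2 folds were above 0 for 4 members and below 0 for hif1a and epas1, beside 48.3% above 0 over all tested genes.

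The intervals show how large a difference these libraries could hide. For arnt2 the fitted ratio of titled bold to titled shy was 1.03, with an interval from 0.843 to 1.251 at 95% confidence. The ratio was 1.03 (0.829 to 1.29) for egln1, 1.00 (0.790 to 1.28) for vhl and 1.09 (0.839 to 1.41) for hif1an. For hif1a it was 0.845 (0.604 to 1.18), and for epas1 0.666 (0.244 to 1.81). A doubling therefore lay outside the interval of 6 of 6 members, and a halving outside that of 5, all but epas1. Their adjusted edgeR p-values lay between 0.955 and 0.997.

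**Figure D2:**
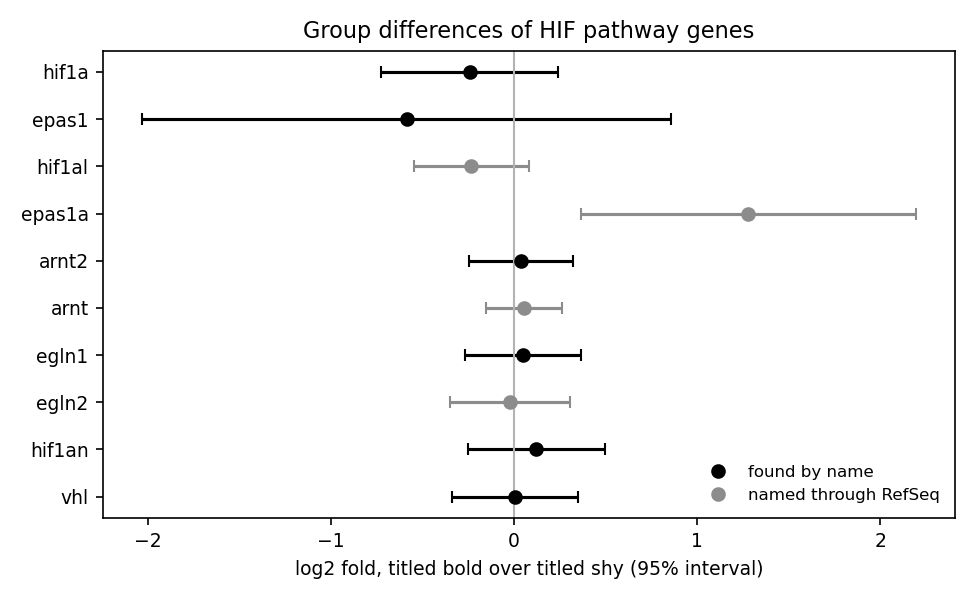
Log2 fold of titled bold over titled shy (x axis) for the 6 members in black and the 4 paralogs in grey, with 95% intervals from edgeR's fit over 19755 genes. The interval of epas1, from -2.03 to 0.86, is the widest, and that of epas1a lies above 0 before adjustment over all genes.

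Paralog use was followed as the share of 1 gene in the summed reads of a pair. Family genes among rows without a symbol, if there are any, are not in these pairs. A share also depends on transcript length, so its size is not a ratio of molecules, while its change between libraries is free of library depth. With 3 libraries against 3, the exact two-sided permutation test cannot give a p below 0.1.

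Within the pair hif1a and epas1, the share of epas1 differed widely between libraries. It was 18.2% (16.1 to 20.5), 4.72% (2.94 to 7.12) and 10.8% (8.88 to 13.1) in titled bold 1, 2 and 3. In titled shy 1, 2 and 3 it was 21.1% (18.9 to 23.4), 14.8% (12.8 to 16.9) and 11.1% (9.27 to 13.2), with exact binomial intervals at 95% that cover counting error only. Means were 11.3 ± 6.77% in titled bold and 15.7 ± 5.03% in titled shy, a difference of -4.39 percentage points (exact permutation p = 0.4). Leaving out titled bold 2 brought the difference to -1.12 percentage points, and leaving out titled shy 1 to -1.68. It was -7.88 when titled bold 1 was left out and -6.65 when titled shy 3 was.

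The pair epas1 and epas1a gave the widest contrast. The share of epas1a was 20.1% (15.5 to 25.3), 66.7% (53.7 to 78.0) and 52.2% (45.1 to 59.3) in titled bold 1, 2 and 3. It was 12.4% (8.98 to 16.6), 14.6% (10.05 to 20.1) and 18.7% (12.6 to 26.2) in titled shy 1, 2 and 3. The groups did not overlap, although titled bold 1 lay within the counting error of titled shy 3. Means were 46.3 ± 23.9% in titled bold and 15.2 ± 3.19% in titled shy, a difference of 31.1 percentage points with exact permutation p = 0.1, the smallest this design can give. In titled bold 2 the high share went with the low epas1 value, at 42 reads of epas1a against 21 of epas1, and in titled bold 3 with the highest epas1a value.

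The other pairs were more even. The share of hif1al in hif1a and hif1al reads was 54.6% (51.3 to 57.8) in titled bold 2 and between 40.1% and 47.0% in the other 5 libraries. Group means were 45.2 ± 8.14% in titled bold and 43.9 ± 3.41% in titled shy (exact permutation p = 0.9). The share of arnt2 in arnt2 and arnt reads lay between 53.5% and 59.0% in titled bold and between 54.2% and 57.8% in titled shy (exact permutation p = 0.8). For egln1 in egln1 and egln2 reads the range was 19.4% to 24.7% in titled bold and 18.1% to 23.3% in titled shy (exact permutation p = 0.8).

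Alpha subunits were also set against beta subunits, a ratio chosen after the values were seen. It covers only the family genes found by symbol. Reads of the 4 alpha-subunit genes per 100 reads of arnt2 and arnt numbered 20.4, 10.6 and 15.5 in titled bold 1, 2 and 3 and 20.7, 18.0 and 16.4 in titled shy 1, 2 and 3. Titled bold 2 was lowest, and the groups overlapped (difference -2.89, exact permutation p = 0.4). Without titled bold 2 the difference was -0.43.

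**Figure D3:**
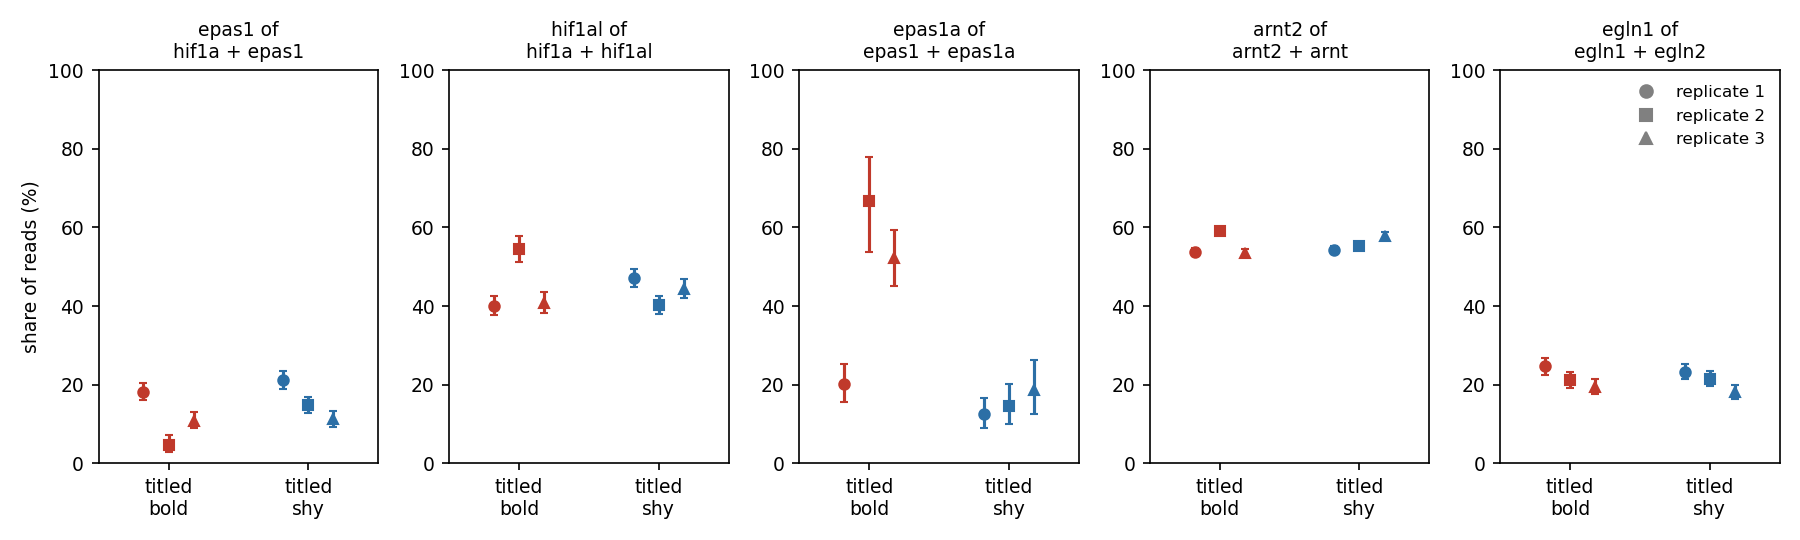
Share of 1 gene in the reads of a paralog pair (y axis, percent) per library, titled bold in red and titled shy in blue, with exact 95% binomial intervals. The epas1a share spreads between 20.1% and 66.7% in titled bold and between 12.4% and 18.7% in titled shy. Over all libraries the arnt2 shares lie between 53.5% and 59.0% and the egln1 shares between 18.1% and 24.7%.

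The levels of hif1a and epas1 followed each other across the 6 libraries. On log2 CPM, Pearson's r was 0.97 (exact permutation p = 0.00417, adjusted over the 15 member pairs 0.0625) and Spearman's rho 0.94 (exact permutation p = 0.0167, adjusted 0.167). Leaving out titled bold 2 and titled shy 1, the libraries farthest from the epas1 median, r was 0.97 over 4 libraries, and without titled bold 2 alone it was 0.88. Neither adjusted p passed 0.05. The beta-subunit gene arnt2 ran opposite to both, with r = -0.91 to epas1 and r = -0.88 to hif1a (exact permutation p = 0.0167 and 0.0278, adjusted 0.125 and 0.139). Over the same 6 libraries Spearman's rho was -0.77 to epas1 (exact permutation p = 0.103, adjusted 0.257) and -0.89 to hif1a (exact permutation p = 0.0333, adjusted 0.167). Without the 2 libraries farthest from the arnt2 median, titled bold 2 and titled shy 3, r was -0.61 to epas1 and -0.85 to hif1a. Without titled bold 2 alone it was -0.68 to epas1 and -0.61 to hif1a. This was not particular to arnt2. The gene hif1an had r = -0.71 to epas1 and -0.68 to hif1a (exact permutation p = 0.101 and 0.108, adjusted 0.325 for both). Its Spearman's rho was -0.77 to epas1 and -0.89 to hif1a, as for arnt2. Without titled bold 2 the r of hif1an to hif1a was -0.96. That of egln1 to hif1a was then 0.97, against -0.61 over all 6 libraries.

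Many genes had profiles like those of hif1a and epas1 over the 6 libraries. Among 9210 named genes with a mean of at least 10 CPM, 245 had an r of at least 0.95 with hif1a and 177 with epas1. The number was 72 for arnt2, 31 for hif1an, 20 for egln1 and 15 for vhl. Over 6 libraries, some of 9210 genes reach such an r by chance, and how many was not tested. The genes named next are the 2 with the highest r to each member, given as a description only. The genes most like hif1a were edc4, an mRNA decapping factor, and ppp6r3, a regulatory subunit of protein phosphatase 6 (r = 0.997 and 0.996). Those most like epas1 were the ubiquitin ligase gene trim25 and the oxysterol-binding gene osbp (r = 0.996 and 0.994). Closest to arnt2 were osbpl8 and dnajc9 (r = 0.996 and 0.995), and to egln1 the cadherin gene cdh13 and ssuh2 (r = 0.998 and 0.986). For hif1an they were the complex I gene ndufc1 and hsd17b12b (both r = 0.984), and for vhl usp18 and pla2g12a (r = 0.987 and 0.984).

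**Figure D4:**
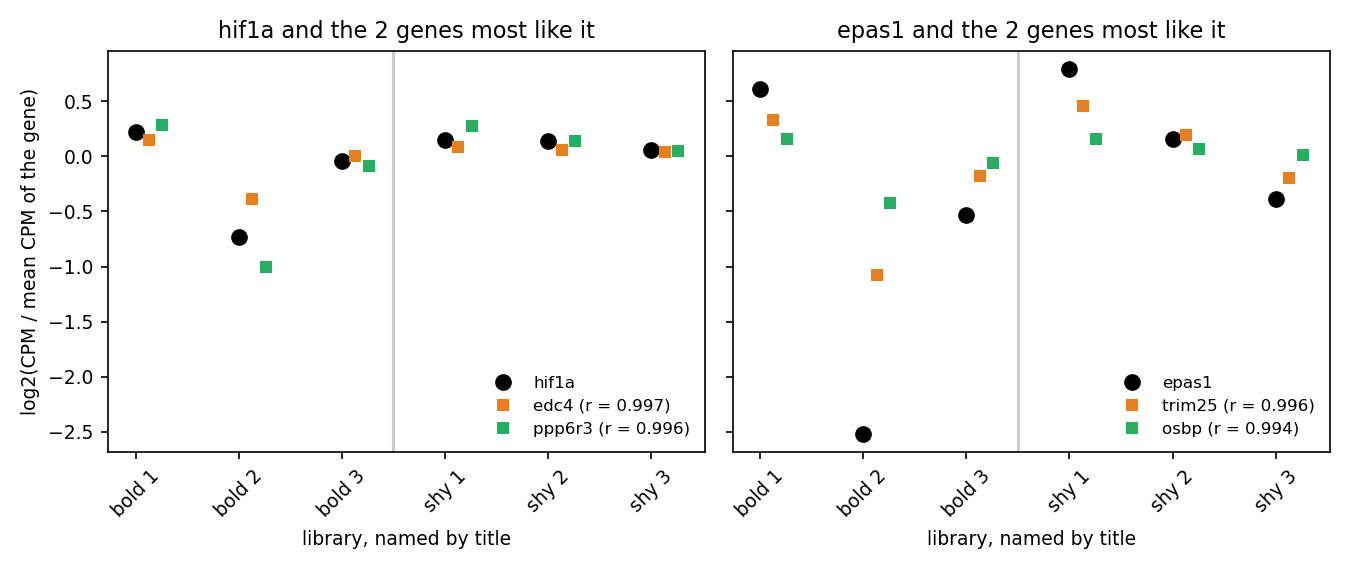
Log2 of CPM over the gene's own mean (y axis) in each library (x axis) for hif1a and epas1, in black, and for the 2 genes most like each over the 6 libraries. All 6 genes are lowest in titled bold 2, and epas1 covers the widest range.

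Genes that act with the members were counted from lists of pathway parts, beside a median log2 fold of -0.01 over all 19755 tested genes. The lowest edgeR adjusted p in each of these lists was 0.955, so edgeR called none of their genes. The shares over all tested genes beside which the counts stand are 3.49% at an unadjusted edgeR p under 0.05 and 9.53% without overlap. Of 16 genes of the VHL ubiquitin ligase and of HIF stability, 11 were above 0 and 5 below, with a median of 0.05, and 0 had an unadjusted edgeR p under 0.05. The groups did not overlap for 3 of the 16, all higher in titled bold, where the share over all tested genes was 9.53% (4.53% higher). The elongin C gene eloc, which links VHL to the ligase, had 99.6 ± 9.95 CPM in titled bold and 84.7 ± 0.829 CPM in titled shy. The ubiquitin-like modifier gene nedd8 had 50.1 ± 2.87 CPM in titled bold and 43.7 ± 0.836 CPM in titled shy, and cops5, a deneddylase subunit of the COP9 signalosome, 58.6 ± 8.86 CPM in titled bold and 49.5 ± 4.67 CPM in titled shy. Without titled bold 2 the log2 fold of eloc was 0.15, against 0.23 with it, and that of cops5 0.12, against 0.24.

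Coactivators and modifiers of HIF were mostly a little below 0. Of 27 tested genes, 6 were above 0 and 21 below, with a median of -0.03, and 0 had an unadjusted edgeR p under 0.05. The groups did not overlap for 2 of the 27, both lower in titled bold, where the share over all tested genes was 9.53% (5% lower). The demethylase gene kdm4c had 41.7 ± 3.85 CPM in titled bold and 49.8 ± 4.31 CPM in titled shy, and the acetyltransferase gene ep300b 71.1 ± 6.31 CPM in titled bold and 82.2 ± 6.85 CPM in titled shy. The log2 fold of ep300b, -0.21, came to -0.14 when titled bold 2 was left out and to -0.13 when titled shy 1 was. The row named mtor, for a growth kinase, had 5.85 ± 2.72 CPM in titled bold and 9.18 ± 2.40 CPM in titled shy. Its log2 fold of -0.65 came to -0.38 when titled bold 2 was left out and to -1.05 when titled bold 1 was. RefSeq gives the name mtor to another row too, LOC109630754. It had between 47.0 and 49.1 CPM in titled bold and between 50.3 and 51.1 CPM in titled shy, a log2 fold of -0.06. The row named mtor therefore holds the smaller part of the reads under that name.

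Other bHLH-PAS genes, whose proteins compete for ARNT or ARNT2, lay lower in titled bold with 1 exception among 5 tested. Their median log2 fold was -0.46. It came to -0.22 when titled bold 2 was left out, to -0.30 when titled shy 3 was and to -0.72 when titled bold 1 was. At an unadjusted edgeR p under 0.05 there were 2 of 5, both lower in titled bold, where the share of lower genes over all tested genes was 1.75%. The aryl hydrocarbon receptor gene ahr2 had 12.6, 5.86 and 10.1 CPM in titled bold 1, 2 and 3 and 17.8, 14.9 and 14.4 CPM in titled shy 1, 2 and 3. Its groups did not overlap, and its lowest value was in titled bold 2. Its log2 fold was -0.72 ± 0.27 (SE), and -0.47 without titled bold 2. The neuronal factor gene npas3 had 4.73 ± 2.00 CPM in titled bold and 8.63 ± 1.71 CPM in titled shy, a log2 fold of -0.86 ± 0.34 (SE). Without titled bold 2 it was -0.59, with an unadjusted edgeR p of 0.061. The activity-induced gene npas4a went the other way, at 9.53 ± 4.97 CPM in titled bold and 5.90 ± 1.43 CPM in titled shy. Its value in titled bold 2, 3.83 CPM, was the lowest of the 6. Its log2 fold of 0.69 (unadjusted edgeR p of 0.137) was 0.42 without titled bold 1. Without titled bold 2 it was 1.07, with an unadjusted edgeR p of 0.0024. That fit called 0 genes, and its lowest edgeR adjusted p over all tested genes was 0.435.

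Known HIF targets showed no common direction across their lists. Among 21 tested genes of erythropoiesis and vessels, 15 were above 0 and 6 below, with a median of 0.09, and 2 had an unadjusted edgeR p under 0.05. The groups did not overlap for 2 of the 21, both lower in titled bold, where the share over all tested genes was 9.53% (5% lower). The vasoconstrictor gene edn1 had 9.22, 23.3 and 17.6 CPM in titled bold 1, 2 and 3 and 9.34, 8.08 and 5.34 CPM in titled shy 1, 2 and 3. Titled bold 2 and 3 lay above all titled shy libraries and titled bold 1 did not, with a log2 fold of 1.14 ± 0.35 (SE) that was 0.82 without titled bold 2. The chemokine receptor gene cxcr4 had 2.65 ± 0.885 CPM in titled bold and 4.53 ± 0.484 CPM in titled shy, with a log2 fold of -0.78 ± 0.32. The adrenomedullin gene adm, which encodes a vasodilator peptide, had 2.86 ± 0.988 CPM in titled bold and 1.65 ± 0.171 CPM in titled shy. The 2 best known targets of this list, singled out after their values were seen, overlapped between the groups. The erythropoietin gene epo had 10.7, 12.7 and 12.9 CPM in titled bold 1, 2 and 3 and 10.3, 8.74 and 11.5 CPM in titled shy 1, 2 and 3. The vascular growth factor gene vegfa had 36.3, 43.7 and 33.2 CPM in titled bold 1, 2 and 3 and 24.3, 37.5 and 39.2 CPM in titled shy 1, 2 and 3.

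Targets in glucose and lactate metabolism numbered 26 tested genes, 18 above 0 and 8 below, with a median of 0.05. At an unadjusted edgeR p under 0.05 there were 4, 3 higher and 1 lower in titled bold, where the share over all tested genes was 3.49%. The groups did not overlap for 6, 5 higher and 1 lower, where that share was 9.53% (4.53% higher and 5% lower). The sum over the list lay between 5674 and 5999 CPM in titled bold and between 5087 and 5226 CPM in titled shy, without overlap. Its largest part was aldoc, and the sum was looked at after the values were seen. Sums of the other target lists overlapped between the groups. The brain aldolase gene aldoc had 2087, 2091 and 2124 CPM in titled bold 1, 2 and 3 and 1739, 1763 and 1667 CPM in titled shy 1, 2 and 3. The spread within each group was small beside the gap, and the log2 fold was 0.29 ± 0.10 (SE), between 0.28 and 0.31 without any 1 library. The glycolysis regulator gene pfkfb3 had 25.8 ± 2.58 CPM in titled bold and 20.2 ± 2.10 CPM in titled shy.

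The row named gapdh, for a glycolytic dehydrogenase, had 3.96, 7.66 and 5.13 CPM in titled bold 1, 2 and 3 and 34.2, 7.07 and 25.9 CPM in titled shy 1, 2 and 3. Its groups overlapped through titled shy 2, its log2 fold was -2.01 ± 0.53 (SE), and DESeq2 called it with an adjusted p of 0.0379, the 1 gene of this list that it called. The row is low beside other glycolysis genes of the list, such as tpi1 (417 to 569 CPM) and pgk1 (321 to 364 CPM). Whether rows without this name hold more reads of the same enzyme was not tested, so the fold is that of this row only.

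Targets in pH control, matrix, survival and feedback numbered 30 tested genes, 11 above 0 and 19 below, with a median of -0.10, and 1 had an unadjusted edgeR p under 0.05. This was the lysyl oxidase gene loxa, with 5.68, 5.63 and 4.19 CPM in titled bold 1, 2 and 3 and 7.40, 9.63 and 10.5 CPM in titled shy 1, 2 and 3. The groups did not overlap, and the log2 fold was -0.83 ± 0.24 (SE). The mitophagy gene bnip3 had 54.0 ± 3.11 CPM in titled bold and 46.8 ± 1.76 CPM in titled shy, while its relative bnip3lb had 54.1 ± 9.31 CPM in titled bold and 66.7 ± 10.6 CPM in titled shy. Another relative, bnip3la, held more reads and had a log2 fold of -0.17. Its values lay between 233 and 244 CPM in titled bold and between 257 and 282 CPM in titled shy. The groups did not overlap for 3 of the 30 genes, 1 higher and 2 lower, where the share over all tested genes was 9.53%.

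Of 17 other dioxygenase genes, whose enzymes need oxygen as the HIF hydroxylases do, 7 were above 0 and 10 below. Their median was -0.02, with 0 at an unadjusted edgeR p under 0.05. The groups did not overlap for 1 of the 17, lower in titled bold, where the share over all tested genes was 9.53% (5% lower). A locus that RefSeq names kdm6a (LOC109646092), for a histone demethylase, had 8.18 ± 2.80 CPM in titled bold and 11.2 ± 1.14 CPM in titled shy. Its log2 fold of -0.45 came to -0.21 when titled bold 2 was left out and to -0.69 when titled bold 1 was. The row named kdm6a itself held more reads, between 45.9 and 79.3 CPM in titled bold and between 60.4 and 67.3 CPM in titled shy, with a log2 fold of -0.02. The RNA demethylase gene fto had 39.2 ± 0.368 CPM in titled bold and 43.0 ± 4.58 CPM in titled shy, and ado, which encodes a thiol dioxygenase, 14.6 ± 1.80 CPM in titled bold and 16.6 ± 1.45 CPM in titled shy. Without titled bold 2 the median was 0.04 for the dioxygenases, -0.01 for the targets in pH control, matrix, survival and feedback, 0.05 for those of erythropoiesis and vessels and 0.03 for the VHL ligase list.

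**Figure D5:**
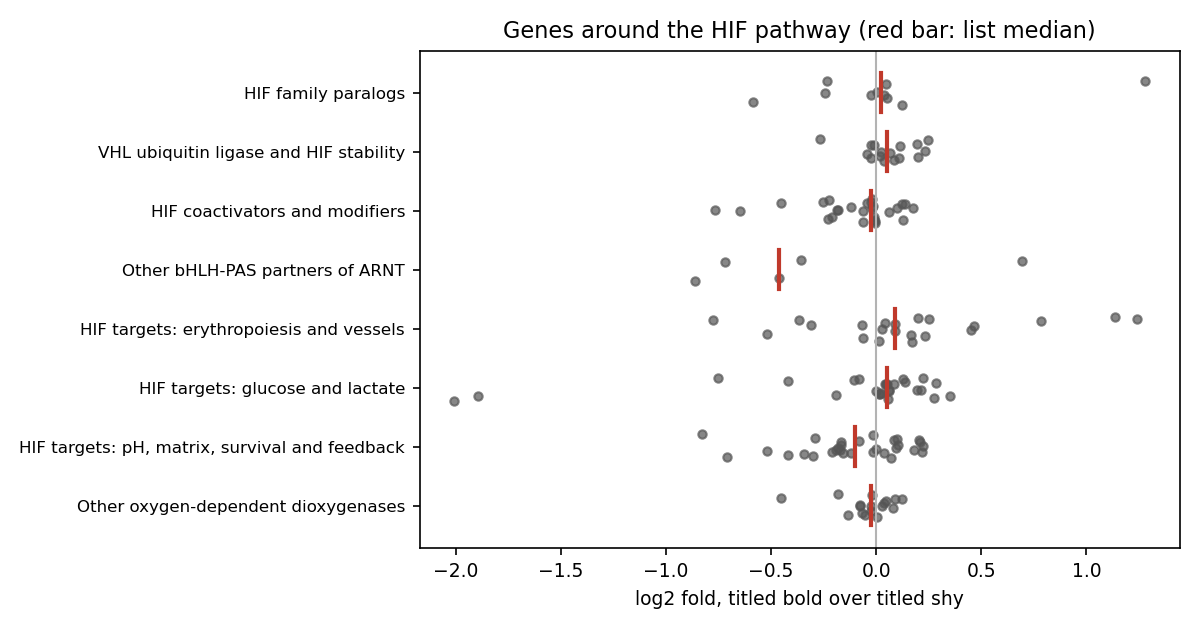
Log2 fold of titled bold over titled shy (x axis) for each tested gene of the HIF family, the pathway lists and the target lists, 1 point per gene, with the list median as a red bar. List medians lie between -0.10 and 0.09 except for the 5 bHLH-PAS genes at -0.46.

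Markers of the cell types in the tissue were summed per library to stand beside these values. Markers of erythrocytes, 8 rows for 11 listed symbols, summed to between 19.9 and 29.1 CPM in titled bold and between 22.5 and 24.0 CPM in titled shy. No globin gene was among those found. The largest part of each sum was epb41, with between 6.97 and 14.8 CPM in titled bold and between 10.2 and 12.9 CPM in titled shy. The sums therefore follow that gene more than any other of the list. Mural cell markers summed to between 148 and 185 CPM in titled bold and between 195 and 205 CPM in titled shy, without overlap. Taken singly, 1 of these 7 genes did not overlap, where the share over all tested genes was 9.53%. Their log2 folds were mixed, 3 above 0 and 4 below. Markers of astroglia and radial glia lay between 4094 and 5400.2 CPM in titled bold and between 4244 and 5906 CPM in titled shy. Among them slc1a2 had 99.8 CPM in titled bold 2, against between 335 and 592 CPM elsewhere, while not all genes of this list were lowest there. Microglial markers lay between 66.4 and 77.6 CPM in titled bold and between 59.5 and 116 CPM in titled shy, with apoea at 0 in all 6 libraries. Markers of meninges and fibroblasts summed to between 276 and 406 CPM in titled bold and between 198 and 408 CPM in titled shy. Cerebellar granule cell markers, looked at because the labelled tissue is hindbrain, summed to between 568 and 639 CPM in titled bold and between 536 and 611 CPM in titled shy. The largest part of each sum was gabra6b, with between 341 and 431 CPM in titled bold and between 364 and 384 CPM in titled shy. The sums therefore hide changes in smaller genes of the list. The gene neurod1 had 8.12, 10.97 and 0.249 CPM in titled bold 1, 2 and 3. In titled shy 1, 2 and 3 it had 7.58, 0.53 and 0.426 CPM, so it split the libraries within both groups. The part of these marker lists in the values of the HIF genes was not tested.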

How the data were processed

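The authors deposited raw read counts per gene, 1 table for each of 6 libraries, without rows for unassigned reads. Libraries came from a stranded mRNA kit with 100-base paired ends, per the labels' protocols, and HTSeq 0.11.1, TopHat2 2.0.11 and Trimmomatic 0.30 appear in the submitters' processing notes. The genome build, annotation and strand setting were not given in the sources used here, so reads of close paralogs may be split uncertainly. LOC numbers were named by gene number from RefSeq ASM2471397v2, which matched 11455 of 14730 and gave 5666 a symbol.

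Genes were filtered with filterByExpr, which left 19755, scaled by TMM, tested two-sided with edgeR 4.0.16 (robust quasi-likelihood, R 4.3.3) and adjusted by Benjamini-Hochberg; log2 CPM used a prior count of 2. The 6 pairs of libraries within groups each differed by a chi-square of 15.7 or more per gene. Shares and correlations used exact permutation tests. Alternatives included DESeq2 1.42.0 and limma 3.58.1. The steps were also run on counts simulated from the fitted spread of each gene. No simulated library was set apart as titled bold 2 is, so that run cannot show how the fit behaves on these libraries.

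The members and lists were chosen with earlier results of these data known. All members and RefSeq-named paralogs are named, and the 3 genes with the smallest p of each pathway list; marker lists are given as sums, with a gene from them named outside this rule only where it was at 0 or, after its values were seen, where titled bold 2 was its extreme. Pairs other than hif1a with epas1 were formed after LOC numbers were named. Symbols were matched with or without a suffix a or b. No sequences or transcript lengths were used.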

Additional observations from a re-analysis of the deposited data

How the results depend on the processing

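No HIF pathway member was called under any of the 16 alternatives to edgeR with TMM scaling. The number of genes called was 12 with DESeq2 and 0 in the other alternatives. Genes at an unadjusted p under 0.05 numbered 1851 with limma-voom and library quality weights, 1160 with the replicate block and between 536 and 2392 when 1 library was left out, against 690. The highest count came without titled bold 1, where 2 members passed that level, against 0 without any other 1 library. Leaving out 1 library also turned small log2 folds around: arnt2 ran between -0.0815 and 0.142, egln1 between -0.0222 and 0.123, vhl between -0.0755 and 0.133 and egln2 between -0.116 and 0.113. With limma-voom and quality weights arnt2 was at -0.016 and egln1 at -0.050, and vhl was at -0.0022 with upper-quartile scaling and -0.025 with library totals. Differences in share ran between -3.44 and 3.78 percentage points for hif1al, -2.17 and 0.663 for arnt2 and -0.672 and 1.96 for egln1. The cause was not tested. The signs for hif1a, epas1, hif1an, hif1al, epas1a and arnt were kept in all 16 alternatives. Same-numbered libraries correlated at 0.316, 0.136 and 0.0798 in their deviations from group means. For each titled bold library this was the highest value with any titled shy library. Seen from the titled shy libraries, titled shy 3 correlated slightly better with titled bold 2 (0.0843). These values do not settle whether the numbers mark pairs, and the main fit did not take them as pairs. Under the replicate block the log2 fold was -0.29 for hif1a, -0.86 for epas1 and 1.20 for epas1a, and no member was called. Shares per coding length were not run, for want of transcript lengths. Counting error was larger for epas1 and epas1a, with between 21 and 275 reads per library, than for the other family genes. It came to 8.16% and 14.2%, below their coefficients of variation of 57.6% and 61.7%.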
